A study of Mus musculus with 2 samples.

Results

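The dystrophin-glycoprotein complex ties the actin cytoskeleton of muscle to the surrounding matrix, and 9 of its genes were examined for binding of GATA4, a transcription factor with zinc fingers that binds GATA motifs in DNA. The genes were chosen by name: Dmd, Utrn, Dag1, Sgca, Sgcb, Sgcd, Sgce, Dtna and Sntb1. A peak was assigned to a gene when its centre lay in the RefSeq span of the gene (build GRCm38) or within 50 kb of it. By this rule 35 of the 17539 deposited GATA4 peaks belonged to 8 of the 9 genes. Going by the name of their list, the peaks came from 1 GATA4 chromatin immunoprecipitation library of cultured mouse myoblasts, the proliferating precursors of muscle fibres. The series also holds 1 control IgG library from the same kind of cells. These were grown out of satellite cells in medium with serum and basic fibroblast growth factor, and both libraries share the stock STOCK Myf5tm1Pas/J, which carries a targeted Myf5 allele of unstated zygosity. A mixture of 3 GATA4 antibodies was used for the precipitation. There was no replicate, so no value below has an error between libraries and no difference between conditions was tested. Intervals are exact 95% Poisson intervals of a peak count and cover counting error only. Neither depth nor IgG background at these genes is known, since reads were not analysed here. No marker of myoblast identity was measured in these libraries, so the labelled cell type was taken from the labels alone.

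In striated muscle, dystrophin binds actin inside the cell and dystroglycan at the membrane, and dystroglycan in turn binds laminin outside. The sarcoglycans form a membrane-spanning group beside dystroglycan, and dystrobrevins and syntrophins bind dystrophin on the cytoplasmic side. Loss of dystrophin or of the sarcoglycans of striated muscle causes muscular dystrophy, and utrophin, the close relative of dystrophin, holds much of the same place before dystrophin is abundant and at the neuromuscular junction.

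Of the 35 peaks, 1 covered a listed transcription start of a complex gene, that of Sgcb. The RefSeq promoter sequences (GRCm38.p6) hold 8 starts of 6 of the genes. The upstream 250 bases are shown for Sgcb, whose start lay in a peak, for Utrn, the gene with the most peaks, and for Dmd and Sgcd, the longest of the 9 genes, with 1 peak and none. Each is written 5′ to 3′ on the strand of the gene and ends at the base before the start. Capitals mark the letters GATA or their reverse complement TATC. The printed starts of Utrn, Dmd and Sgcd lie 8.15, 134 and 610 kb inside the span, counted from the end where the gene begins. Their stretches are thus not those at that end.

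Sgcb (chr5:73647738-73647987, minus strand): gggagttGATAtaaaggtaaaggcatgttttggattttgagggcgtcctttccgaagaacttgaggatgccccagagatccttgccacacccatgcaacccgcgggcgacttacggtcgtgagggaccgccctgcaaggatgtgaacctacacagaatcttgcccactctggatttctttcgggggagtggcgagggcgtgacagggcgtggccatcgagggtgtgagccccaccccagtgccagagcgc

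Utrn (chr10:12861736-12861985, minus strand): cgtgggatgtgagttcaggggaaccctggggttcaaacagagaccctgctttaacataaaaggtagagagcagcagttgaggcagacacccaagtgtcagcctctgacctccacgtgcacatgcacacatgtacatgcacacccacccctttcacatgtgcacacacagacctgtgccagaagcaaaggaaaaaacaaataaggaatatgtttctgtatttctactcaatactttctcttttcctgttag

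Dmd (chrX:82948620-82948869, plus strand): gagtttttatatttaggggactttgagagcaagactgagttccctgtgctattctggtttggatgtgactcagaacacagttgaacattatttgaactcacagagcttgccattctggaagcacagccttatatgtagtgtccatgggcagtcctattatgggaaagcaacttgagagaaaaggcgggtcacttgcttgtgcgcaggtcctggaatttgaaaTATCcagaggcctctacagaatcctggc

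Sgcd (chr11:47379326-47379575, minus strand): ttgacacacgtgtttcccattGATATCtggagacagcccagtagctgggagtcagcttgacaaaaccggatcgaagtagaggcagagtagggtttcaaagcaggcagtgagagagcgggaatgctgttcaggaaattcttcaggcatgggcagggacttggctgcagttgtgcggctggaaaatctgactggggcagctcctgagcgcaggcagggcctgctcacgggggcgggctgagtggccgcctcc

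In Sgcb the 170 bases next to the start lay inside the peak, and the single GATA core, at -243 from the start, lay outside them. The Utrn stretch held no GATA core, while that of Dmd held 1 and that of Sgcd held 2 that overlap. A longer GATA site, which contains the core, was searched as GATAA or GATAG directly after an A or a T, on both strands of the whole 300 bases, from 250 before to 50 after each start. None of the 8 member promoters held one, against 29.8% of the 32851 promoters of the table. The GATA core alone was found in 5 of the 8, against 57.9% of all promoters, and the E-box letters CANNTG in 6 of the 8, against 72.3%. These 8 windows belong to 6 genes, and those of Dag1 overlap each other, so they are not 8 separate promoters. Among the 2004 promoters that a peak overlapped, 23.8% held the longer site and 51.4% the core. Those promoters had a median of 59.7% G and C, against 52.7% over all promoters. The part of base composition in these shares was not tested. All such matches describe letters in short windows next to starts, whereas 34 of the 35 peaks lay elsewhere.

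GATA4 peaks were unevenly shared among the complex genes. Utrn had 12 peaks and Sntb1 had 10, together 62.9% of the 35. Dtna had 5, Dag1, Sgca and Sgce had 2 each, Sgcb and Dmd had 1 each, and Sgcd had none. Having any peak was not unusual: 8 of the 9 genes had one, against 56.8% of the 21887 protein coding genes (12430 genes), and the share was lowest in short genes. It was 50.8% of genes under 30 kb, the class of Sgca and Sgcb, where both had a peak, and 65.7% of those from 30 to 100 kb, the class of Dag1 and Sgce, where again both did. It was 74.4% between 100 and 300 kb, the class of Sntb1, which had peaks, and 71.8% over 300 kb, where 3 of the 4 members, Dmd, Utrn and Dtna but not Sgcd, had one. With only 10 kb of flank 8 of the 9 had a peak, against 33.3% of all genes, and in the span alone 7 of the 9, against 21.0%. Most genes are short, and this share too depends on length: no peak in the span was found in 90.3% of genes under 30 kb, 66.6% of those from 30 to 100 kb, 39.4% between 100 and 300 kb and 33.0% over 300 kb. The members without one were Sgca, in the first of these classes, and Sgcd, in the last. A peak above the median score was found within 50 kb of 7 of the 9, against 36.8% of all genes. Neither this share nor that with 10 kb of flank was matched for gene span. Having as many as 10 peaks was less common. Only 0.726% of all protein coding genes did, or 11.1% of those over 300 kb, the class of Utrn, and 2.46% of those between 100 and 300 kb, the class of Sntb1.

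**Figure D1:**
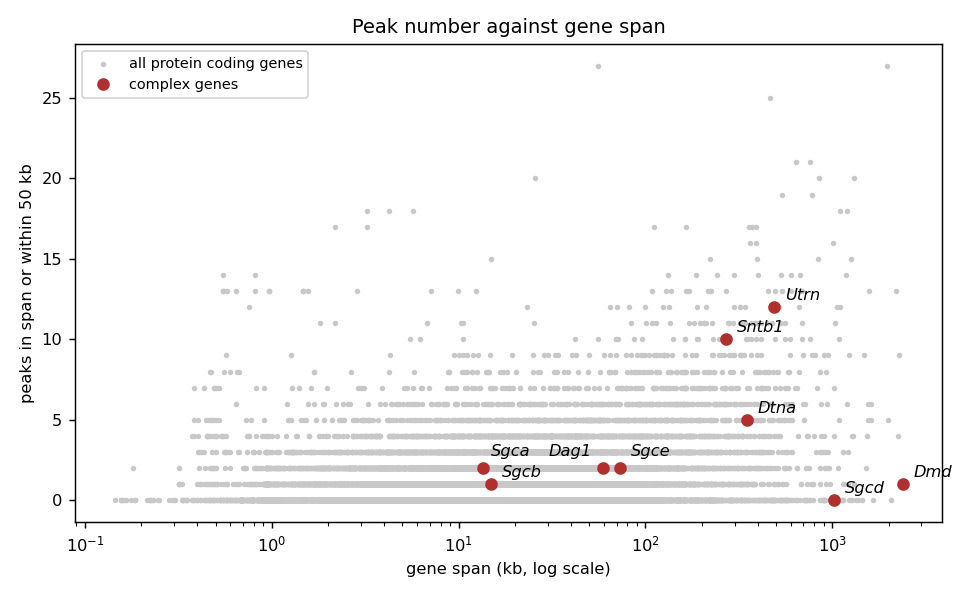
Number of GATA4 peaks in the gene span or within 50 kb (vertical axis) against gene span in kb on a log scale (horizontal axis), with all protein coding genes as grey points and the 9 complex genes in red. Utrn (12 peaks) and Sntb1 (10 peaks) sit high for their span, while Dmd (1 peak) and Sgcd (0 peaks) sit at the bottom among the longest genes.

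Because chromosomes differed in peak density, each gene was set beside its own chromosome. Sntb1 had 27.0 peaks per Mb of its span and flanks (95% interval 12.9 to 49.6), 3.27 times the 8.25 per Mb of chromosome 15. Sgcd had 0 peaks in 1.12 Mb (0 to 3.30 per Mb), where the density of chromosome 11, 7.56 per Mb, would give 8.45 peaks. In these 2 genes the counting interval did not reach the density of the chromosome.

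The other 7 genes could not be told apart from their chromosomes by counting error. Utrn had 20.4 peaks per Mb (10.6 to 35.7), against 12.8 on chromosome 10, the densest chromosome of the list. Dmd had 0.402 per Mb (0.0102 to 2.24), against 1.20 on chromosome X, the least dense of the chromosomes that hold complex genes. Dtna had 11.1 per Mb (3.61 to 25.9), against 6.29 on chromosome 18. Densities in the short genes rested on 1 or 2 peaks and their intervals were wide, as for Sgca at 17.6 per Mb (2.13 to 63.6). Pooled over the 9 genes, 35 peaks in 5.58 Mb came to 6.28 per Mb (4.37 to 8.73), and the chromosome densities would give 28.9 peaks. The pooled value mixes opposite departures. Dmd and Sgcd lay below their chromosomes. All 7 genes other than Dmd and Sgcd lay above theirs, with 34 peaks in 1.97 Mb, though singly only Sntb1 did so beyond counting error. This split was drawn from the values themselves and was not tested. Neighbouring peaks may not be independent, so these intervals can be too narrow.

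**Figure D2:**
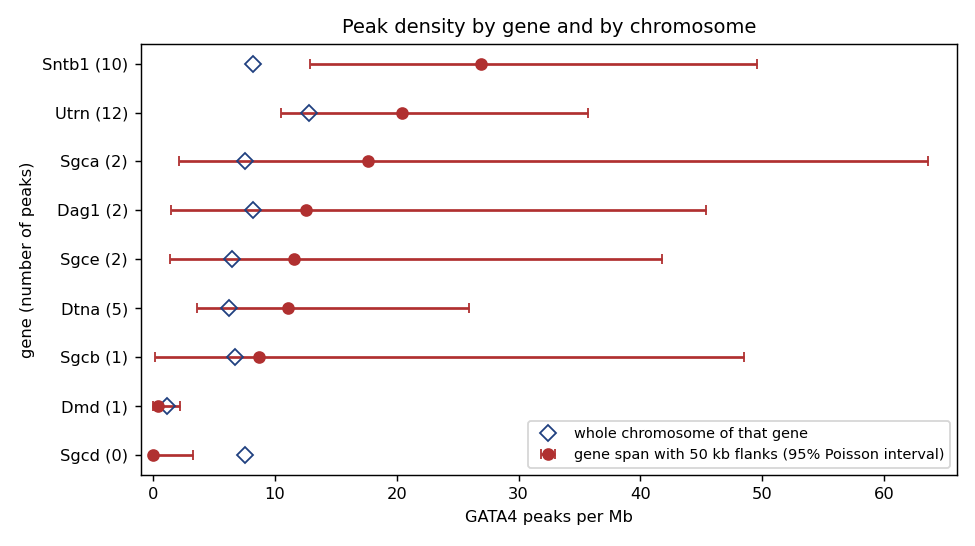
GATA4 peaks per Mb (horizontal axis) for each complex gene with its 50 kb flanks (red points, bars are exact 95% Poisson intervals of the count, number of peaks in parentheses), with the density of the whole chromosome of that gene as blue diamonds. The diamond lies below the bar for Sntb1 and above it for Sgcd, and within the bar for the other 7 genes.

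Most of the assigned peaks lay inside the genes, as did most of the searched length, 4.68 of 5.58 Mb. Over the whole list, 51.4% of peaks lay inside a protein coding gene, and 79.4% inside or within 50 kb of one. Of the 35 assigned peaks, 31 were inside a span (6.63 per Mb of span, 4.50 to 9.41). Only 4 lay in the flanks (4.44 per Mb of flank, 1.21 to 11.4), and the intervals overlap. Dmd and Sgcd made up 72.9% of the pooled span but held 2.86% of the peaks. The pooled density inside spans is therefore not that of the remaining genes, for which inside and flank were not compared. Peaks close to gene ends were few, with 2 of the 35 within 1 kb of an end of their gene (5.71%) and 5 within 10 kb (14.3%). Over all peaks of the list, 10.6% lay within 1 kb and 31.5% within 10 kb of an end of some protein coding gene. The shares of the 35 count only the ends of the assigned gene, whereas those of the list count the ends of any protein coding gene. Long genes also offer more interior than short ones. The shares are thus not on an equal footing.

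**Figure D3:**
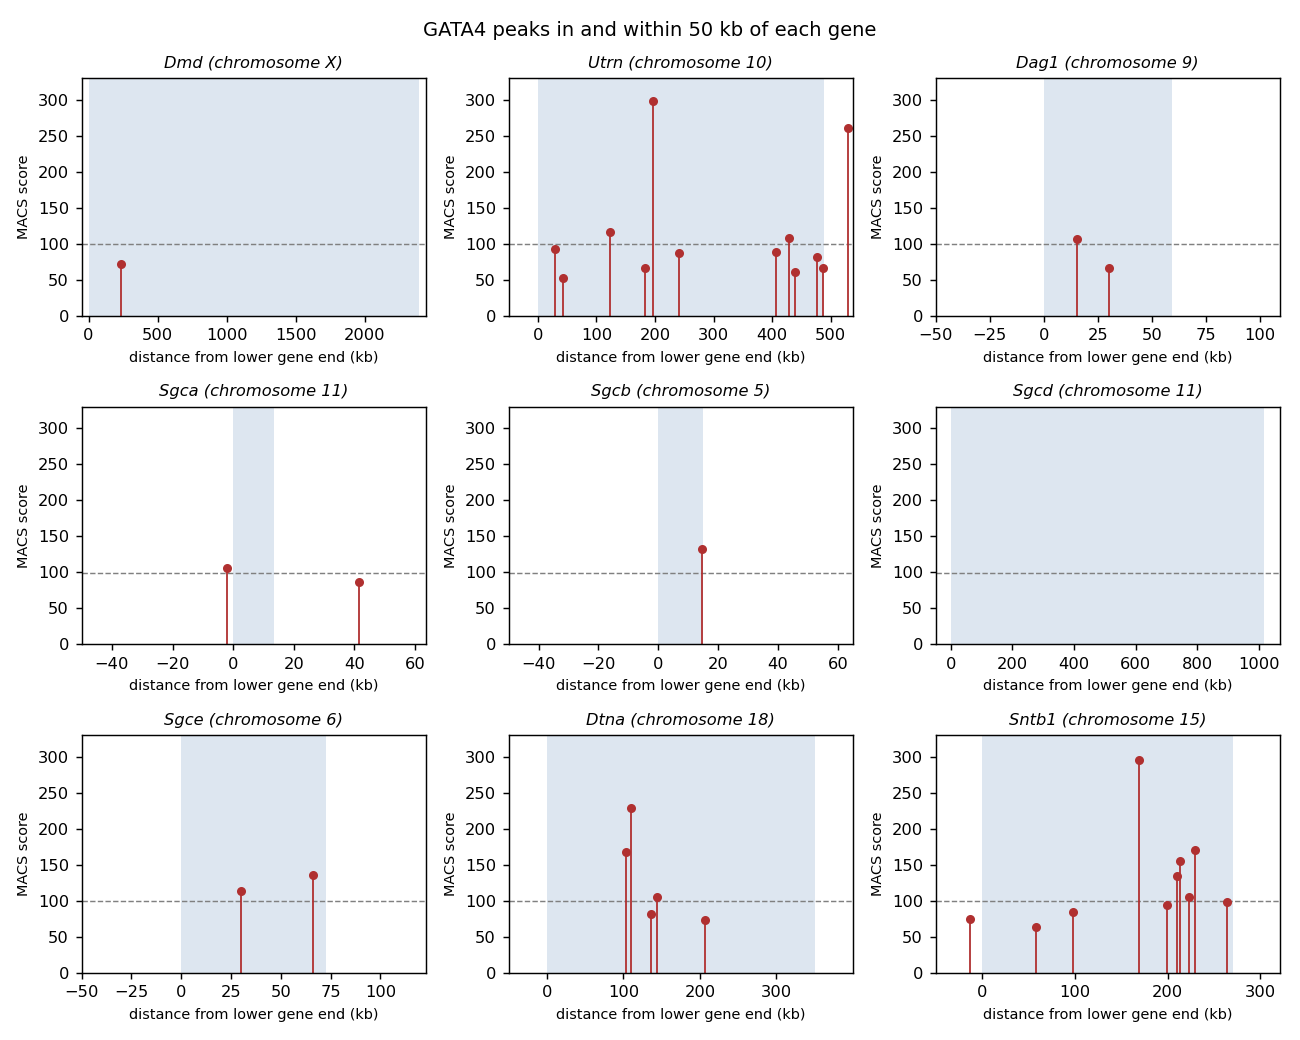
GATA4 peaks of the 9 complex genes, placed by the distance of their centre from the lower-coordinate end of the gene in kb (horizontal axis), with the MACS score as height (vertical axis), the gene span shaded and the median score of all peaks, 99.3, as a dashed line. The peaks of Utrn are spread over the span, 5 of the 10 of Sntb1 lie within 31.5 kb of each other, those of Dtna lie between 29.7% and 59.2% of its span, and the Sgcd panel is empty.

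Utrn and Dmd, which encode the related actin-binding proteins utrophin and dystrophin, differed widely in peak number. Utrn spans chr10:12382187-12869888 on the minus strand, and 11 of its 12 peaks were inside it. The scores given here are the MACS values that the authors deposited for each peak, on a scale with a median of 99.3 over the list. The lowest Utrn peak scored 52.6, the median was 87.9 and the highest 299. The highest, chr10:12577563-12578744, was 1182 bp wide and lay deep in the gene, 59.8% of the way from its higher-coordinate end, where the minus-strand gene begins. Its score was above 97.9% of all peaks in the list.

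The remaining inner peaks of Utrn scored between 52.6 and 117. A group of 5 lay in the first 16.8% of the gene, at 89.2, 107, 61.1, 81.3 and 65.9 in order of approach to its beginning. The last of these, chr10:12869044-12869757, was centred 0.488 kb inside the higher-coordinate end of the span. The one before it, chr10:12858520-12859665, was centred 2.64 kb downstream of the single start that the promoter table lists, which lies 8.15 kb inside the span. No peak overlapped the printed Utrn promoter. The twelfth peak, chr10:12912139-12912627, lay 42.5 kb outside the gene and scored 261 in a width of 489 bp. It was nearer to Stx11, at 25.8 kb, so distance does not assign it to Utrn.

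Dmd spans chrX:82814664-85205050, 2390 kb, and held 1 peak, chrX:83051199-83051729, with a score of 71.6 and a width of 531 bp. This score was above 18.3% of the list. The peak lay 103 kb downstream of the nearest of the 2 listed Dmd starts, and 9.91% of the way along the span. The other listed start, 2234 kb into the span, had its nearest peak 733 kb away. On either side of the single peak the list was empty for 3.04 Mb and 2.73 Mb, the ninth and eleventh longest of the 201 stretches between neighbouring peaks on chromosome X. Sparse peaks were usual for long genes of this chromosome: of 24 protein coding genes over 300 kb there, 13 had no peak within 50 kb and 20 had none or 1.

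Dag1 encodes dystroglycan, the laminin receptor of the complex. It spans chr9:108204861-108263977 on the minus strand and had 2 peaks, both inside the gene. They scored 106 (chr9:108220066-108220725) and 66.2 (chr9:108234714-108235420), at 73.7% and 48.9% of the way from the beginning of the gene. The 2 listed starts of Dag1 lay 28.7 and 28.9 kb from the nearest peak centre. Their windows were rich in G and C, at 75.3% and 69.7%, against a median of 52.7% over all promoters. The peaks were also within 50 kb of Bsn.

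The sarcoglycan genes ranged from a peak over the start to none in a megabase. Sgcb, the gene of beta-sarcoglycan, spans chr5:73632749-73647737 and had 1 peak, chr5:73647060-73647907, centred 0.254 kb downstream of the listed start. It was 848 bp wide and scored 132, above 71.5% of the list. It was the only one of the 8 member promoters with a peak, against 6.10% of all promoters. Lrrc66 and Spata18 were within 50 kb as well, and Sgcb was the nearest protein coding gene.

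Sgce, the gene of epsilon-sarcoglycan, which is made in many tissues and is imprinted in the mouse, spans chr6:4674350-4747204. Its 2 peaks were both inside it and both above the median score, at 114 (chr6:4703827-4704769) and 136 (chr6:4739880-4741078). They were 943 and 1199 bp wide, both above the upper quartile of the list, 899 bp. The second lay 6.73 kb from the higher-coordinate end. Both were also within 50 kb of Peg10, the imprinted neighbour of Sgce.

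Sgca, the gene of alpha-sarcoglycan, a subunit of striated muscle, spans chr11:94962777-94976327 on the minus strand and had no peak inside. A peak with a score of 106 (chr11:94960481-94961146) was centred 1.96 kb beyond the lower-coordinate end, past the end of the gene. Another with a score of 85.9 (chr11:95003793-95004579) lay 27.9 kb from the other end, inside Ppp1r9b. The surroundings are gene-dense, with Col1a1, Hils1, Ppp1r9b and Samd14 within 50 kb of the first peak. Sgca was the nearest protein coding gene of the first peak but not of the second.

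Sgcd, the gene of delta-sarcoglycan, spans chr11:46971077-47989451, 1018 kb, and had no peak in the span or the flanks. Its nearest peaks lay 516 kb below and 725 kb above the gene, an empty stretch of 2.26 Mb between peak centres. This was the eighth longest of 898 such stretches on chromosome 11, whose median was 48.5 kb, and the 106th longest of 17313 on the autosomes. A long gene without peaks was not rare in this list. Of 55 autosomal protein coding genes over 1 Mb, 18 had no peak within 50 kb (32.7%).

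Dtna and Sntb1 encode the cytoplasmic partners alpha-dystrobrevin and beta-1-syntrophin, the adaptors through which signalling proteins attach to the complex. Dtna spans chr18:23310006-23659719 and had 5 peaks, all inside it. They scored 167, 229, 81.3, 105 and 73.7 in order of coordinate, and lay between 29.7% and 59.2% of the span from its lower-coordinate end. The highest, chr18:23419765-23420161, and the one before it, chr18:23413606-23414008, were 6.16 kb apart. Both were narrow, at 397 and 403 bp, below the lower quartile of 589 bp. The end nearest to any Dtna peak was still 104 kb away. Dtna, Sgce and Sntb1 had no entry in the promoter table.

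Sntb1 had the most crowded peaks of the complex. It spans chr15:55636388-55907302, and 9 of its 10 peaks were inside it. The lowest scored 63.5, the median was 102 and the highest 296. The highest, chr15:55805078-55806957, was 1880 bp wide, wider than 99.7% of the list, and its score was above 97.9% of the list. Higher along the coordinate, 5 peaks lay within 31.5 kb (chr15:55835228-55866736), between 2.94 and 11.4 kb apart. They scored 94.3, 134, 155, 105 and 170.

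These 5 were picked for their crowding, so a share among them is not comparable with that of the list. Of all 35 peaks of the complex genes, 3 had at least 4 other peaks within 25 kb, all in this run. Over the whole list 6.08% of peaks did. Broad peaks were frequent in Sntb1, where 7 of 10 were wider than the upper quartile of the list, 899 bp. A further peak, chr15:55899535-55900548, lay 7.26 kb inside the higher-coordinate end and scored 98.2. The tenth, outside the gene at 12.6 kb with a score of 74.9, was inside Mtbp.

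The complex genes did not stand out by peak height. The 35 peaks scored 98.2 at the median (quartiles 78.1 and 133), and 17 of them (48.6%) were above the list median of 99.3. The list had quartiles of 77.7 and 138. Above its upper quartile were 7 of the 35 (20%). Of these 7, 4 were wide, the highest peak of Utrn and 3 of Sntb1, and 3 were narrow, the pair of Dtna and the outer peak of Utrn. Over the whole list, 26.7% of the peaks above the upper score quartile were narrower than the lower width quartile. How duplicate reads were handled is unstated, and its part in these high scores of narrow peaks was not tested. The median width was 795 bp, against 745 bp for all peaks, and 23 of the 35 were wider than that.

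**Figure D4:**
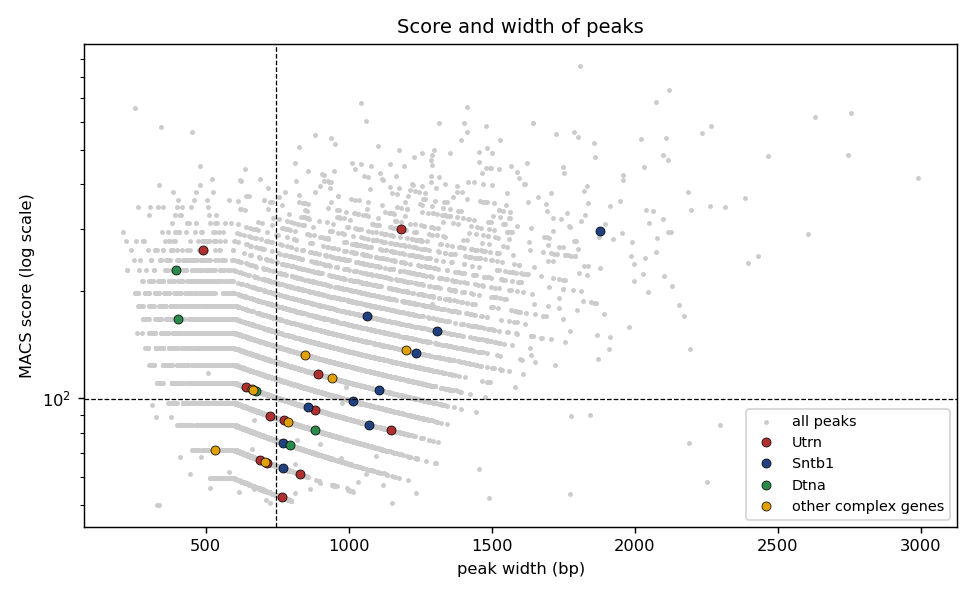
MACS score on a log scale (vertical axis) against width in bp (horizontal axis), with all 17539 peaks in grey and the 35 peaks of the complex genes coloured by gene, and dashed lines at the list medians of 99.3 and 745 bp. The peaks of Sntb1 lie mostly to the right of the median width, and the pair of high narrow peaks at the left belongs to Dtna.

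No peak lay close to the limit of 50 kb on its inner side. The outermost assigned peak was that of Utrn at 42.5 kb, with a score of 261. Just beyond the limit were peaks of 71.9 and 122 at 50.8 and 51.3 kb on either side of Dtna. In all, 3 of the 35 peaks were nearer to another protein coding gene than to the complex gene, 1 each at Utrn, Sgca and Sntb1, and 9 had another protein coding gene within 50 kb.

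The wider pathway was described with 37 further genes. Of these, 25 had a peak within the same limits (67.6%), against 56.8% of all protein coding genes. That share varied with gene span, from 50.8% under 30 kb to 74.4% between 100 and 300 kb, and the comparison was not matched for span. The 25 comprised 6 of 9 other complex subunits and paralogs and 5 of 8 matrix partners. They also comprised 6 of 9 intracellular partners and 8 of 11 genes that act in the glycosylation of dystroglycan. The median gene of the 37 had 1 peak, as did the median protein coding gene.

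The highest scores were at Sspn, Sntg1, Ank3 and Lama2. Sspn encodes sarcospan, which associates with the sarcoglycans, and its 8 peaks, 60.0 per Mb against 6.50 on chromosome 6, included one of 488 at chr6:146006016-146007517, 41.5 kb outside the gene. Only 2 of these 8 peaks lay in Sspn or within 10 kb of it. Sntg1, a gamma-syntrophin gene, had 6 peaks, the highest at 362. Ank3 encodes an ankyrin and had 13, with a top score of 353. Lama2, the laminin chain that dystroglycan binds in muscle, had 21, with a top score of 307. A peak overlapped its listed promoter and 1 of the 4 listed for Ank2. These were the only 2 of the 24 pathway genes in the promoter table with an overlapped promoter. Over all promoters the share was 6.1%, counted per promoter and not per gene. Ank3 and Lama2, like Utrn, lie on chromosome 10.

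Cav3, Sync, Ank2 and Sntb2 followed with top scores of 243, 214, 213 and 198. The Cav3 peak lay 37.8 kb from the gene and nearer to Ssu2, and the top Sntb2 peak nearer to Vps4a. No peak within 50 kb was found at Sgcz, Sntg2, Drp2, Agrn, Bgn, Hspg2, Nos1, Grb2, Ctnnal1, Pomt1, Pomgnt2 and Rxylt1. Sgcz, the gene of zeta-sarcoglycan, is 1144 kb long and so resembles Sgcd in length and in having no peak.

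**Figure D5:**
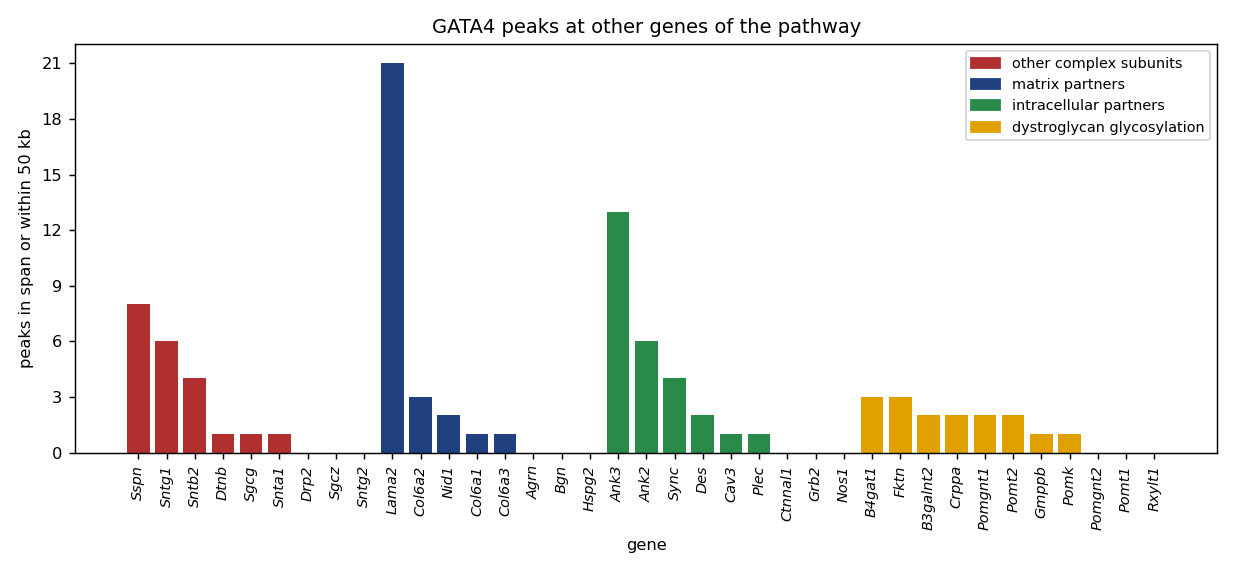
Number of GATA4 peaks in the gene span or within 50 kb (vertical axis) for the 37 further genes of the pathway (horizontal axis), coloured by their place in it. Lama2 (21 peaks), Ank3 (13) and Sspn (8) rise above the rest, and 12 genes have none.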

How the data were processed

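GATA4 and IgG chromatin immunoprecipitation libraries of cultured mouse myoblasts were sequenced, 1 of each. The submitters' processing notes name CASAVA 1.8, Bowtie and build GRCm38 (mm10), and the header of the list names MACS in Galaxy as the peak caller. The authors deposited 1 peak list with a MACS score per peak. Its link to the GATA4 library was taken from the name of the list. No source used here gives the caller's version, its threshold, the handling of duplicates or whether IgG served as control. Starts were converted to 1-based positions.

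Gene spans came from a RefSeq table (GRCm38.p6) without exons, and starts, strands and sequences from a RefSeq promoter table, so exons and introns were not told apart. No genome sequence was used here, so peak sequences were not read. Chromosome densities count from 3 Mb up to the end of the last gene. All 46 gene symbols matched. With 1 library, planned results are counts, medians and exact 95% Poisson intervals, with no test. Assignment was tested on simulated data. All members are named, with their highest peak and the peak nearest to an end or listed start, every peak where there are 5 or fewer, and, of the 37 pathway genes, the 8 with the highest score and all without a peak. Other members' peaks and the Sntb1 run were named after their values were seen. Members and lists were chosen with earlier results of these data known, and some planned pathway genes are not reported here. Python 3.11.15, pandas 2.3.3 and scipy 1.17.1 were used.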

Additional observations from a re-analysis of the deposited data

How the results depend on the processing

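The number of assigned peaks, 35, was 32 within 10 kb, 31 in the gene spans alone, 35 with any overlap and 32 where the complex gene was the nearest protein coding gene. It was 17 among peaks above the median score and 23 without chromosome 10, where Utrn is the only member. Between 7 and 8 of the 9 genes had a peak under each of these choices of window and score. Peaks within 1 kb of an end numbered 2, or 1 among peaks above the median score, and 5 lay within 10 kb. Of the 37 pathway genes, 25 had a peak, and 15 did in the span alone. The longer GATA site was in 0 of 8 promoters, the GATA core in 5 and CANNTG in 6. The median score relative to the list was 0.989, and 1.06 without Utrn. The motif alternatives and the peak count without chromosome 10 were chosen after seeing the data, whereas leaving out the member with the most peaks, which was Utrn, was planned for the score. Fewer peaks, members or genes enter the narrower choices by construction. Leaving out a replicate was not possible with 1 library per antibody, and the unknown depth limits what an absence of peaks shows.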
